A study of Mus musculus with 6 samples.

Results

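Imprinted genes, which are expressed mainly from the chromosome of one parent, were followed in embryoid bodies. These are round clusters grown in suspension from mouse embryonic stem cells, in which early embryonic cell types arise. The set was a fixed list of 45 imprinted genes, matched by symbol to the probe sets of an Affymetrix mouse expression array. Of these, 41 had a probe set of any kind, out of 19324 gene symbols on the array, and 38 could be tested. Per the labels, all bodies came from D3 embryonic stem cells, a single cell line, were cultured by rotation without LIF, contained gelatin-coated microspheres and were taken on day 10. In 3 control samples the spheres carried the dye CellTracker Red. In the other 3 they were loaded with RA, retinoic acid, the vitamin A product that binds nuclear receptors. The effect of RA and that of replacing the dye-bearing spheres therefore cannot be told apart. The design text names a range of sphere-to-cell ratios and rotation speeds without saying which the arrays represent. The samples are called triplicates with no statement that the cultures were separate, so p-values measure only how these samples scatter, which may be technical. The comparison asks which imprinted genes change where spheres inside the bodies release RA.

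Imprinting rests on DNA methylation laid down in egg or sperm at control regions and kept on that parental copy through embryonic life. The silent and active copies are then told apart in each cell, often across a whole domain of neighbouring genes and with the help of long noncoding RNAs. Many paternally expressed genes promote fetal growth, many maternally expressed genes restrain it, and many are strongly active in embryonic mesoderm, yolk sac and placenta. The arrays measured the total RNA of a gene in whole bodies and did not tell the parental copies apart. Less RNA per cell and fewer cells of an expressing type cannot be told apart in such data.

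All values below are quantile-normalized log2(intensity + 16) unless a deposited signal is named, and changes are RA minus control on that scale, given ± the SE (standard error) from limma. A gene is said to rise or fall where the limma adjusted p was below 0.05. The deposited signals had medians of 41.4 to 63.7 on the control arrays and 61.7 to 65.5 on the RA arrays. RA array 1 stood apart in the 3-prime to 5-prime ratio of Gapdh, which reflects RNA integrity, at 34.0 against 3.06 to 4.74 on the remaining 5. The ratio for actin was 3.35 to 4.25 in controls and 4.35 to 7.42 with RA. A probe set mean of 5.74, the 40th percentile over all probe sets, was the lower limit for testing.

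Most tested imprinted genes were lower in bodies with RA microspheres. Of 38 tested members 22 fell, which is 57.9%, against 15.6% of all 13608 genes tested, and 4 rose, which is 10.5%, against 14.3% of all genes. The remaining 12 did not pass. In either direction 26 members changed, and 30.0% of all genes did. The median change of the members was -0.45 on the log2 scale, beside 0.01 for all genes. The deepest falls were in the Notch-related membrane protein gene Dlk1 and the zinc finger factor gene Plagl1, and the 4 rises were Calcr, Phlda2, Magel2 and Grb10. A fall of at least 2-fold was met by 10 members, with 4.93% of all genes that far down, and a rise of that size by 3, with 3.04% of all genes that far up. The RA arrays all lay below the control arrays in 24 members and above them in 5, against 22.2% and 21.8% of all genes, and the groups overlapped in 9 members; they did not overlap in 44.0% of all genes.

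Array scaling moved these counts. Without scaling between arrays, where the median of all genes lay at 0.26, 10 members fell and 5 rose, the members' median was -0.17, and 4.78% of all genes fell and 12.9% rose. Without RA array 1 the counts were 21 lower and 4 higher, and leaving out both RA array 1 and control array 3 gave 21 and 5.

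Markers of several cell types also changed. Their lists were chosen with earlier results of these data known, so a shared direction within a list is not an independent result. The sums are of normalized values set back to the linear scale, so the brightest genes of a list weigh most. The summed signal of 7 tested yolk sac endoderm markers ran from 32610 to 34660 in controls and from 6801 to 7923 with RA, and that of 8 mesenchyme markers was 18400 to 21070 and 3569 to 3935. For 8 heart muscle markers it was 12450 to 18840 and 397 to 504, with Myh6, Tnnt2, Tnni1 and Ryr2 below the 5.74 limit in the RA mean. For 6 red cell markers it was 15300 to 17410 and 451 to 489, with Alas2 below the limit. Epiblast markers went the other way, from 1154 to 1440 up to 12740 to 12750 over 7 genes, as did 6 neural markers, from 436 to 658 up to 2317 to 2784. The sum of the 3 tested trophoblast markers, of 7 listed, was 816 to 915 on control arrays and 652 to 787 on RA arrays. Among these 3 markers 1 rose and 1 fell, with changes from -1.77 to 1.09 and a median of 0.26. All 7 yolk sac and all 8 mesenchyme markers fell, 7 heart and 4 red cell markers fell, and 7 epiblast and 3 neural markers rose. Fgb of the yolk sac list lay below the 5.74 limit in the RA mean, and Sox1 of the neural list in the control mean. The part of these cell types in the changes of imprinted genes was not tested.

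**Figure D1:**
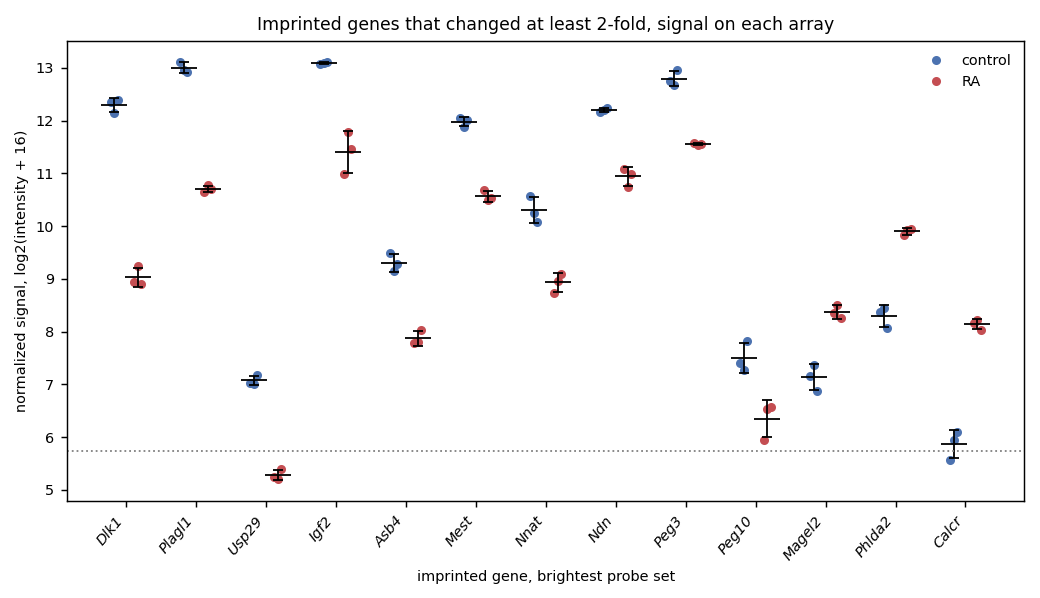
Normalized signal on each of the 6 arrays, log2(intensity + 16), for the 13 imprinted genes that passed the test with a change of at least 2-fold, ordered by change; dots are arrays, bars the mean ± SD (n = 3), and the dotted line is the 5.74 limit. Control and RA arrays do not overlap in any of these genes, and the RA arrays of Usp29 lie under the limit.

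The Dlk1-Dio3 domain on chromosome 12 holds paternally expressed protein-coding genes and maternally expressed noncoding RNAs under a single control region. Dlk1, whose protein restrains adipocyte and other differentiation, had the deepest fall of all tested members. The signals as deposited were 5380, 4552 and 3410 in the controls 1, 2 and 3 and 493, 690 and 524 with RA. After normalization it lay at 12.36, 12.15 and 12.39 in controls and at 8.95, 9.24 and 8.90 with RA. The groups were far apart and the arrays within each lay close together. Dlk1 fell by 3.27 ± 0.10 (SE), which is 9.65 times lower (limma adjusted p = 2.39e-09). A dimmer second probe set of Dlk1 had a change of 0.20 ± 0.32 and did not pass, and with the mean of both sets the change was -1.53.

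Meg3, the maternally expressed noncoding RNA of this domain, fell much less on its brightest probe set. It lay at 11.37, 11.61 and 11.27 in controls and at 10.96, 10.69 and 10.84 with RA, so the groups did not overlap. The change was -0.59 ± 0.10 (1.50 times lower, limma adjusted p = 0.00108). Meg3 had 11 probe sets above the limit, and 5 of them passed as lower, at -1.16 to -0.59, while 0 passed as higher. The other 6 ranged from -0.69 to 0.22. Without scaling the change of Meg3 was -0.18 and did not pass. Rtl1, a retrotransposon-derived gene, and Dio3, a deiodinase that inactivates thyroid hormone, had no probe set of their own name and were not analysed here.

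Plagl1, on chromosome 10, encodes a transcription factor that is known to regulate other imprinted genes, among them Igf2 and H19. Its brightest probe set lay at 13.12, 12.95 and 12.93 in controls and at 10.66, 10.77 and 10.70 with RA. The spread within each group was small beside the gap between them. Plagl1 fell by 2.29 ± 0.07 and was 4.90 times lower (limma adjusted p = 2.74e-09). A second of its 3 probe sets was lower as well, at -1.67 ± 0.25, and the third was at -0.35 ± 0.20 and did not pass. The brightest set belongs to a class whose probes can match related transcripts, which also holds for those of Ndn and Meg3.

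Igf2, a paternally expressed fetal growth factor gene on chromosome 7, was lower on all RA arrays. Its control values were 13.08, 13.09 and 13.12 and its RA values 11.00, 11.78 and 11.46, so that controls were nearly identical and RA arrays varied. Igf2 fell by 1.69 ± 0.15 (3.22 times lower, limma adjusted p = 8.23e-06). H19, the maternally expressed noncoding RNA beside it, lacked a probe set of its own. The probe set named for H19 together with Mir675, the microRNA encoded inside H19, was 13.11, 13.13 and 13.34 in controls and 11.67, 11.80 and 11.88 with RA. Igf2 and this shared probe set thus both stood lower, although they belong to opposite parental copies. The shared probe set fell by 1.41 ± 0.08 (2.66 times lower, limma adjusted p = 6.78e-07 over all 27022 probe sets above the limit, of which 11.1% fell). The array reads the host RNA and does not measure the mature microRNAs, whose RefSeq sequences (GRCm38.p6, minus strand, seed bases 2 to 8 in capitals) show that the 5p and 3p arms do not share a seed.
mmu-miR-675-5p, chr7:142577112-142577133: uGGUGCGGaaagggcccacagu
mmu-miR-675-3p, chr7:142577078-142577099: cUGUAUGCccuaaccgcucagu

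Igf2r, on chromosome 17, encodes the receptor that clears IGF2 from the cell surface and is maternally expressed, while Airn is the paternally expressed antisense RNA that silences it. Igf2r lay at 9.01, 9.01 and 9.05 in controls and at 8.38, 8.23 and 8.73 with RA. The groups did not overlap, and the change was -0.57 ± 0.13 (1.49 times lower, limma adjusted p = 0.00698). Its second probe set fell by 1.32 ± 0.33 and was lowest on RA array 1, at 6.51 against 8.20 and 7.36 on RA arrays 2 and 3. Airn did not pass on its brightest probe set (-0.12 ± 0.28), whose sign turned without control array 1 (0.11) or RA array 2 (0.08) and without scaling (0.07). A dimmer Airn probe set differed from that. It lay at 6.96, 7.21 and 7.14 in controls and at 4.81, 4.93 and 4.51 with RA. In the fit over 23027 probe sets with a single symbol, of which 12.5% fell, it was lower, at -2.35 ± 0.28 (limma adjusted p = 0.000131), but its RA values were under the 5.74 limit. The probe set named for Airn and Igf2r together changed by 0.29 ± 0.25 and did not pass. Without scaling Igf2r did not pass (-0.31), and Slc22a3, a transporter of the same domain, had no probe set of its own name.

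The Kcnq1 domain on chromosome 7 is mostly maternally expressed and is silenced on the paternal copy by the antisense RNA Kcnq1ot1. Of 8 tested members 1 rose (12.5%) and 2 fell (25.0%), beside 14.3% and 15.6% of all genes. The median change of the 8 was -0.01. Phlda2, a gene that restrains growth of the placenta, lay at 8.37, 8.45 and 8.06 in controls and at 9.84, 9.93 and 9.95 with RA. All RA arrays were above all controls, and Phlda2 rose by 1.61 ± 0.12 (3.05 times higher, limma adjusted p = 1.76e-06). Cdkn1c, an inhibitor of cell cycle kinases controlled by the same region, went the other way. Its values were 9.63, 9.55 and 9.51 in controls and 9.00, 8.98 and 8.80 with RA, a change of -0.64 ± 0.10 (limma adjusted p = 0.000554). Cd81, a tetraspanin gene, fell by 0.67 ± 0.10 (limma adjusted p = 0.000274), and neither Cdkn1c nor Cd81 passed without scaling (-0.33 and -0.28).

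The other tested genes of the Kcnq1 domain did not pass. The potassium channel gene Kcnq1 changed by 0.64 ± 0.29, Tssc4 by -0.45 ± 0.31 and the histone chaperone gene Nap1l4 by -0.14 ± 0.09, with a turned sign for Nap1l4 without scaling (0.23). Kcnq1ot1 was at 0.20 ± 0.23, and at -0.03 without control array 3. The transporter gene Slc22a18 was at 0.11 ± 0.27, and near 0 without control array 3 (-0.004) or RA array 2 (-0.0059). Ascl2, a transcription factor of trophoblast, lay below the limit with its 3 probe sets and was not tested.

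The Peg3 domain on chromosome 7 was lower in its paternally expressed genes. Peg3, a zinc finger protein gene, had 3 probe sets above the limit and all 3 fell. The brightest lay at 12.76, 12.68 and 12.96 in controls and at 11.58, 11.54 and 11.56 with RA. The RA arrays lay closer together than the controls. Peg3 fell by 1.24 ± 0.08 (2.36 times lower, limma adjusted p = 6.12e-07), and the other sets were at -1.73 ± 0.16 and -1.36 ± 0.10. Usp29, a ubiquitin protease gene that starts beside Peg3 on the opposite strand, lay at 7.03, 7.01 and 7.18 in controls and at 5.25, 5.21 and 5.40 with RA. It fell by 1.79 ± 0.25 (limma adjusted p = 0.000244), with RA values under the 5.74 limit and therefore open to background. With the mean of its 2 probe sets it was at -0.91 and did not pass (limma adjusted p = 0.0539), the other set being at -0.03 ± 0.49. The maternally expressed zinc finger gene Zim1 changed by -0.39 ± 0.25 and did not pass.

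In the Peg10 domain on chromosome 6, 4 of 5 tested members fell and Calcr rose, beside 15.6% and 14.3% of all genes. Peg10, a retrotransposon-derived gene needed for the placenta, lay at 7.41, 7.27 and 7.83 in controls and at 5.94, 6.53 and 6.57 with RA. It fell by 1.15 ± 0.24 (2.22 times lower, limma adjusted p = 0.00361). Sgce, which encodes epsilon-sarcoglycan and is paternally expressed like Peg10, fell by 0.73 ± 0.12 (limma adjusted p = 0.000955). Asb4, a maternally expressed gene for a protein of the SOCS box type, fell further than Sgce. It lay at 9.49, 9.16 and 9.28 in controls and at 7.78, 7.80 and 8.04 with RA, a change of -1.44 ± 0.13 (2.70 times lower, limma adjusted p = 9.01e-06). Its second probe set fell too, at -1.01 ± 0.18. Ppp1r9a, which encodes the actin-binding protein neurabin, fell by 0.57 ± 0.12 (limma adjusted p = 0.00501). Sgce and Ppp1r9a did not pass without scaling (-0.49 and -0.33), nor did Ppp1r9a with the mean of its probe sets (-0.55).

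Calcr, the calcitonin receptor gene at one end of this domain, showed the steepest rise of the members. It lay at 5.57, 5.95 and 6.09 in controls, close to the lower limit, and at 8.17, 8.22 and 8.04 with RA. The rise was 2.27 ± 0.20, or 4.83 times (limma adjusted p = 8.49e-06). Because the control values lie near the limit, the fold is open to background.

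The Snrpn domain on chromosome 7, which corresponds to the human region of the Prader-Willi and Angelman syndromes, moved in both directions. Ndn and Magel2 encode related proteins of the MAGE family and are adjacent, and they changed in opposite directions. Ndn lay at 12.17, 12.20 and 12.25 in controls and at 11.09, 10.74 and 11.00 with RA. It fell by 1.26 ± 0.09 (2.39 times lower, limma adjusted p = 1.46e-06), and all 5 of its probe sets above the limit fell, with changes of -1.55 to -1.11. Magel2 lay at 7.16, 7.38 and 6.87 in controls and at 8.36, 8.51 and 8.25 with RA. It rose by 1.23 ± 0.17 (2.35 times higher, limma adjusted p = 0.000189) with no overlap between the groups.

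Snrpn, which encodes a protein of the spliceosome, shares a transcript with Snurf, and most of its probe sets carry both names. All 5 shared probe sets above the limit rose, by 0.57 to 1.30 (limma adjusted p = 0.000123 to 0.0256 over all 27022 probe sets, of which 11.3% rose). The brightest lay at 9.97, 10.14 and 10.52 in controls and at 11.08, 11.21 and 11.02 with RA, a rise of 0.89 ± 0.13. The probe set named for Snrpn alone was dim and did not pass (0.52 ± 0.31). Ube3a, a ubiquitin ligase gene that is maternally expressed in neurons, fell by 0.36 ± 0.08 on its brightest probe set (limma adjusted p = 0.00703). Its other 4 probe sets did not pass and ranged from -0.25 to 0.52, the mean of all 5 gave 0.12, and without scaling the change was 0.02, so the direction of Ube3a rests on the probe set and the scaling. The ring finger gene Mkrn3 (-0.19 ± 0.18, and 0.0093 without scaling) and Peg12 (0.35 ± 0.27) did not pass.

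**Figure D2:**
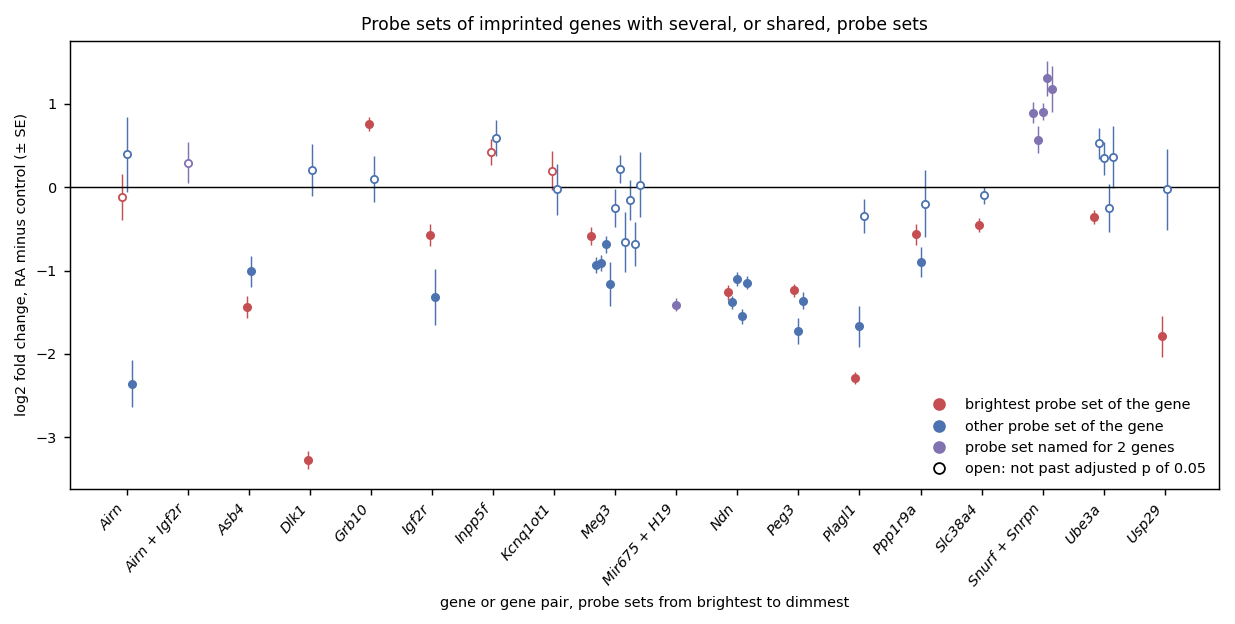
Log2 fold change (RA minus control, ± SE) of each probe set above the limit, fitted over all kept probe sets, for imprinted genes with several probe sets or with probe sets named for a pair of genes. All sets of Ndn and Peg3 lie below 0 and all shared sets of Snurf with Snrpn above it, while the sets of Airn, Dlk1 and Ube3a differ among themselves.

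Of the 11 tested members that are the only one of the 45 in their domain 8 fell and 1 rose, beside 15.6% and 14.3% of all genes. Such a domain can hold imprinted genes outside the 45, such as Ddc next to Grb10. Without scaling Plagl1, Mest and Nnat were the members among these 8 that still passed. Mest, a paternally expressed gene of mesoderm that encodes a hydrolase-like protein, lay at 12.05, 11.88 and 12.01 in controls and at 10.68, 10.49 and 10.53 with RA. It fell by 1.42 ± 0.08 (2.67 times lower, limma adjusted p = 2.16e-07). Nnat, which encodes the small membrane protein neuronatin, was also lower. It lay at 10.58, 10.26 and 10.08 in controls and at 8.74, 8.96 and 9.10 with RA, and fell by 1.37 ± 0.13 (2.58 times lower, limma adjusted p = 1.96e-05). Neither gene had overlapping groups.

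Grb10, an adaptor gene that dampens insulin and growth factor signalling and is maternally expressed in most tissues, rose. It lay at 10.50, 10.62 and 10.67 in controls and at 11.49, 11.36 and 11.22 with RA, a rise of 0.76 ± 0.09 (1.69 times higher, limma adjusted p = 6.15e-05). A dimmer Grb10 probe set changed by 0.09 ± 0.28 and did not pass. Grb10, Phlda2, Calcr and Magel2 passed as higher under each of the 18 alternative settings.

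Smaller falls were found in genes of signalling, transport and translation. Gnas, which encodes the stimulatory G protein alpha subunit and has transcripts from either parental copy, fell by 0.56 ± 0.06 (limma adjusted p = 5.54e-05), and the amino acid transporter gene Slc38a4 fell by 0.46 ± 0.09 (limma adjusted p = 0.00179). The second probe set of Slc38a4 overlapped between groups, did not pass (-0.10 ± 0.10), and gave -0.28 as a mean with the first. Mcts2 fell by 0.85 ± 0.08 (limma adjusted p = 2.08e-05), but it is a retrogene, so its probe set may also read its source gene. Without scaling Gnas, Slc38a4 and Mcts2 did not pass (-0.16, -0.08 and -0.50). Impact, a regulator of translation, and Zdbf2, a zinc finger gene, fell, at -0.39 ± 0.12 and -0.43 ± 0.14 (limma adjusted p = 0.0352 and 0.0400). Without scaling neither passed (-0.08 and -0.21), nor did they without a variance trend (limma adjusted p = 0.110 and 0.0723). Impact also missed with trimmed mean scaling (limma adjusted p = 0.0509) and Zdbf2 with no filter on dim probe sets (limma adjusted p = 0.0533). Impact kept its call when control array 3 was left out and lost it on leaving out any other single array (-0.42 to -0.25). Zdbf2 lost its call on leaving out control 1, control 3, RA 2 or RA 3 (-0.41 to -0.36).

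Inpp5f and Rasgrf1 did not pass. The inositol phosphatase gene Inpp5f lay at 7.93, 7.96 and 8.16 in controls and at 8.72, 8.28 and 8.31 with RA. Its change was 0.42 ± 0.15 (limma adjusted p = 0.0525), and it passed without control array 3 (0.50). It also passed with the filter at the 60th percentile (limma adjusted p = 0.0444) and with the mean of its probe sets (limma adjusted p = 0.0460). Rasgrf1, a Ras exchange factor gene, varied widely in controls, at 6.18, 4.95 and 7.07, against 7.38, 7.02 and 7.15 with RA. The change of Rasgrf1 was 1.11 ± 0.42 (limma adjusted p = 0.0703), and it passed without control array 3 (1.65) and with the replicate number as a block (limma adjusted p = 0.0440). It also passed without scaling (1.34, limma adjusted p = 0.000487) and without both RA array 1 and control array 3 (1.55, limma adjusted p = 0.0248). Nap1l5, a histone chaperone-like gene, lay below the limit and Zrsr1, a splicing factor gene, had no probe set of its own name.

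Grouped by the copy that is expressed, falls were found on both sides. Of all genes 15.6% fell, 14.3% rose and 4.93% fell at least 2-fold. Of 22 tested paternally expressed members 14 fell (63.6%) and 1 rose (4.55%), with a median of -0.60. Of the 10 falls of at least 2-fold 9 were among them. Of 15 tested maternally expressed members 7 fell (46.7%) and 3 rose (20.0%), with a median of -0.39. The fall of at least 2-fold on the maternal side was that of Asb4, and the rises there were Calcr, Phlda2 and Grb10. These counts rest on probe sets that carry 1 symbol alone. The maternally expressed H19 is therefore left out, although its shared probe set was lower (-1.41). The paternally expressed Snrpn counts as not passed, although all its shared probe sets above the limit rose. The difference between the parental classes was not tested, and alleles were assigned from general knowledge of each gene, although several members are imprinted only in placenta or brain. Without scaling 9 paternally and 1 maternally expressed member fell, beside 4.78% of all genes.

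**Figure D3:**
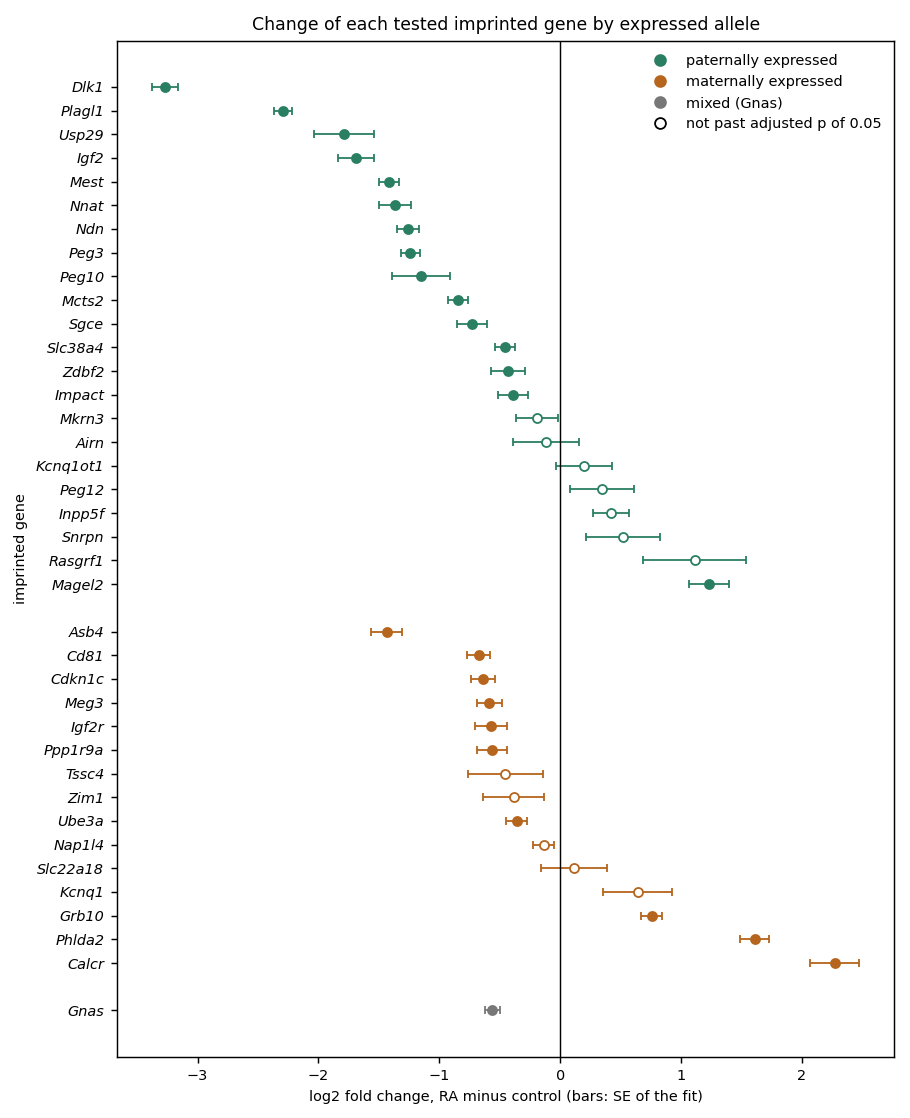
Log2 fold change (RA minus control, with the SE of the fit) of each of the 38 tested imprinted genes, grouped by expressed parental copy; filled dots passed the limma test and open dots did not. Paternally expressed genes run from Dlk1 at -3.27 to Magel2 at 1.23 and maternally expressed genes from Asb4 at -1.44 to Calcr at 2.27.

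Genes just outside the domains were counted beside the members. Up to 5 tested genes on each side of the domains with several members were taken in the order of the RefSeq table. They were neither members nor on the list of other imprinted genes given below, but may include imprinted genes outside these lists. Of these 58 neighbours 6 fell (10.3%) and 9 rose (15.5%), with a median of 0.14. In those domains 14 of 27 tested members fell (51.9%) and 3 rose (11.1%), with a median of -0.45. Of all genes 15.6% fell and 14.3% rose, with a median of 0.01. The difference between members and neighbours was not tested. Beside the Dlk1-Dio3 domain 0 of 10 neighbours fell and 1 rose, the zinc finger factor gene Yy1 (0.38 ± 0.09). Beside the Igf2-H19 and Kcnq1 domains, counted jointly because they adjoin, 4 of 10 fell, among them the leukocyte gene Lsp1 (-1.55 ± 0.34), the lysosomal protease gene Ctsd (-0.64 ± 0.09), the troponin gene Tnni2 (-0.93 ± 0.30) and the cortactin gene Cttn (-0.23 ± 0.08). The ribosomal protein gene Mrpl23, next to H19, rose (0.39 ± 0.09).

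Of all genes 14.3% rose and 15.6% fell, and beside the Snrpn domain 4 of 10 neighbours rose and 0 fell. These were the nicotinic receptor gene Chrna7 (0.81 ± 0.17), Klf13 (0.84 ± 0.19), Mtmr10 (0.98 ± 0.24) and Nipa2 (0.26 ± 0.09). Beside Igf2r, Qk (0.50 ± 0.09) and the chaperonin gene Tcp1 (0.30 ± 0.08) rose, beside Peg3 the zinc finger gene Zfp954 rose (0.60 ± 0.20), and beside Peg10 Sem1 (-0.25 ± 0.08) and Gm20559 (-0.56 ± 0.19) fell. The limma adjusted p of these 15 neighbours ran from 0.000342 to 0.0472. Several of these calls rest on single arrays. The call of Nipa2 was lost without any single array (0.20 to 0.29), that of Gm20559 without any but control 3 (-0.62 to -0.47) and that of Tnni2 without any except RA array 3 (-0.99 to -0.71). Zfp954 did not pass without control 1, control 3, RA 1 or RA 3 (0.49 to 0.61), Cttn without control 1, control 3, RA 2 or RA 3 (-0.25 to -0.17), Sem1 without control 3, RA 2 or RA 3 (-0.25 to -0.18) and Tcp1 without control array 2 or RA array 3 (0.23 and 0.27). With the mean of a gene's probe sets Qk was at -0.02, Tnni2 at -0.13, Yy1 at 0.30, Cttn at -0.25 and Sem1 at -0.13, none of which passed. Without scaling Cttn was at 0.19, Sem1 at 0.15, Ctsd at -0.29, Tnni2 at -0.73, Gm20559 at -0.37 and Nipa2 at 0.63, again with no call.

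**Figure D4:**
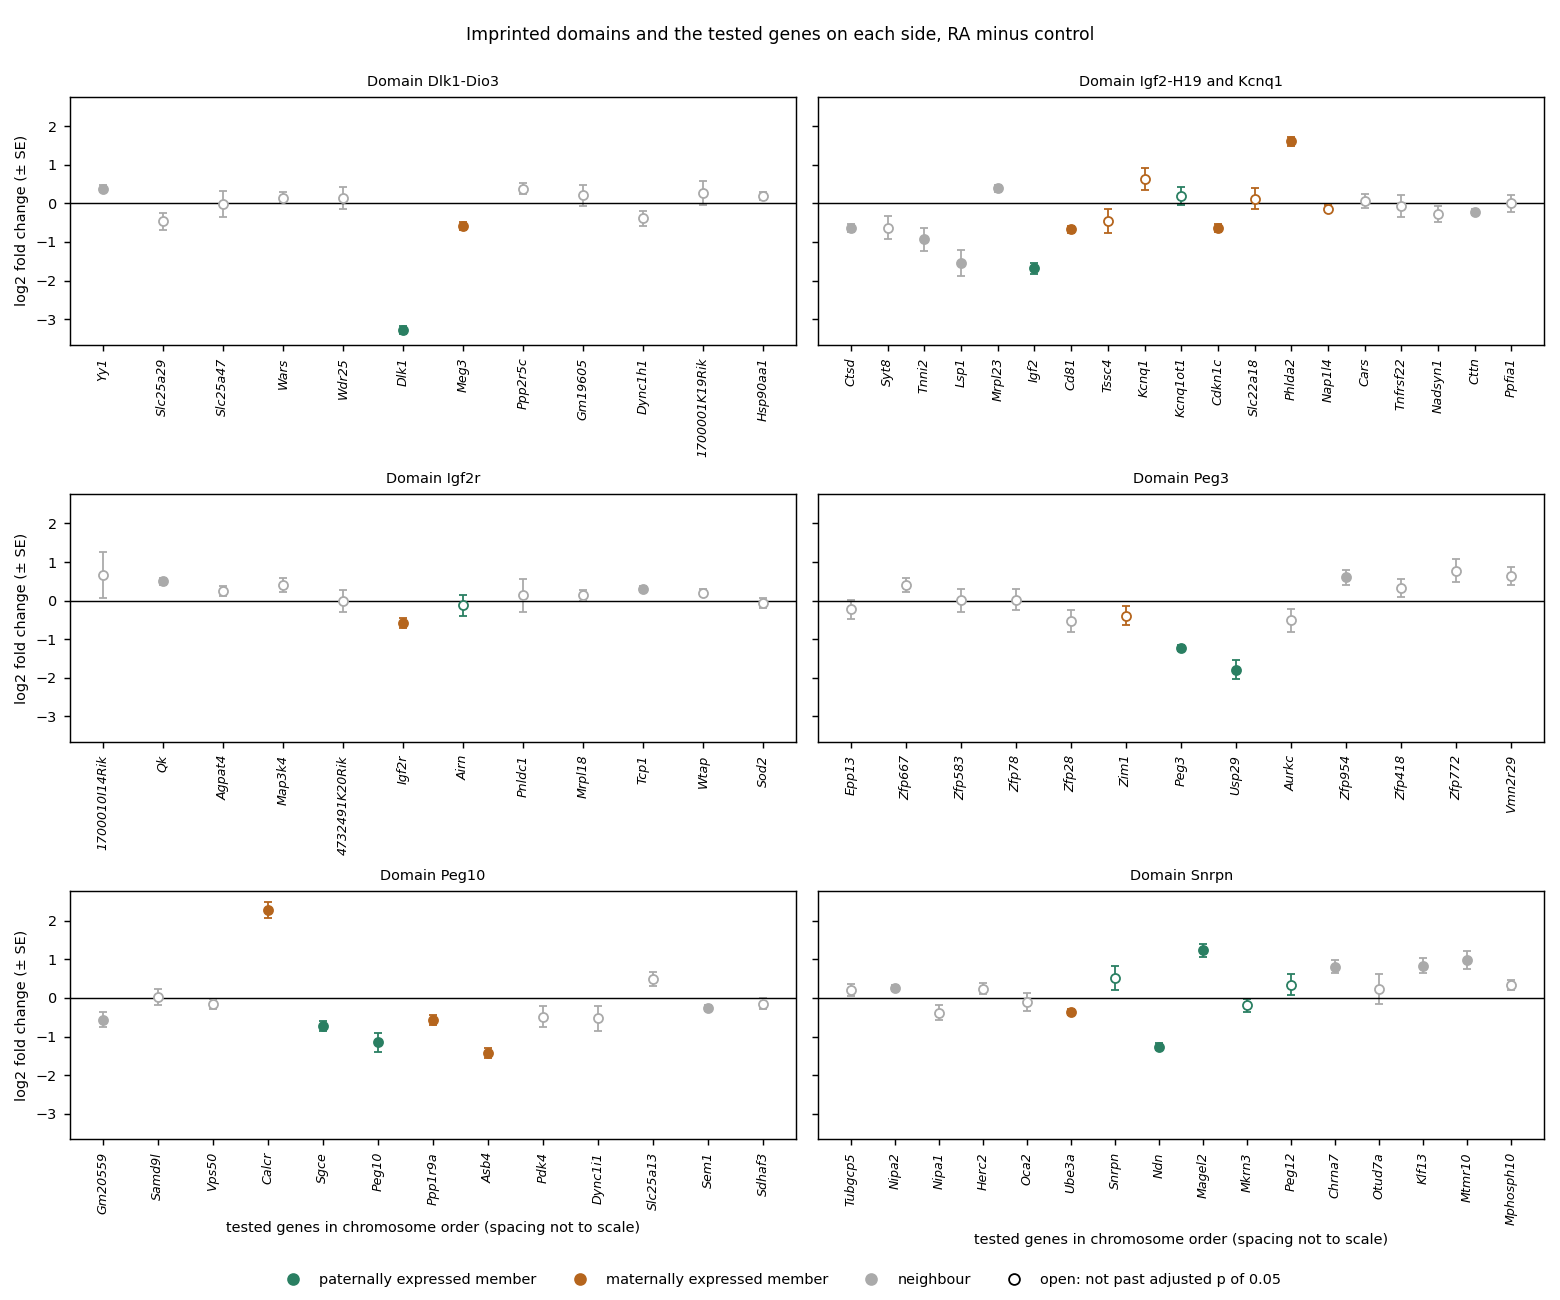
Log2 fold change (RA minus control, ± SE) of tested imprinted genes (coloured by expressed copy) and of the tested neighbours on each side (grey) in chromosome order for 6 regions; filled dots passed the limma test, and spacing is not to scale. Dlk1, Peg3 and Usp29 lie below all neighbours plotted with them and Calcr and Phlda2 above theirs, while Igf2 (-1.69) lies near its neighbour Lsp1 (-1.55).

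Other imprinted genes, a list of 39, are given beside the members. Of 25 that could be tested 6 fell, which is 24.0% beside 15.6% of all genes, and 1 of the 25 rose, beside 14.3% of all genes, with a median of -0.15. Ddc, the aromatic amino acid decarboxylase gene next to Grb10, fell the most, from 9.06, 9.18 and 8.77 in controls to 7.11, 7.11 and 6.96 with RA, a change of -1.94 ± 0.15 (3.84 times lower, limma adjusted p = 2.08e-06). Casd1, a sialic acid acetyltransferase gene of the Peg10 region, fell by 0.79 ± 0.11, and not without scaling (-0.47). Ampd3, an AMP deaminase gene, fell by 1.53 ± 0.35 to an RA mean of 5.17, under the limit, and Gab1, a signalling adaptor gene, rose by 0.61 ± 0.11. Trappc9 (-1.03 ± 0.32) and Qpct (-1.11 ± 0.35) passed with a limma adjusted p of 0.0307 and 0.0339, and the RA mean of Qpct was 5.51, under the limit. Without scaling Qpct did not pass (-0.92). Trappc9 did not pass without RA array 1 (-0.65) or without any single control array (-1.13 to -0.85), nor did Qpct without any single control array or RA array 2 or 3 (-1.22 to -0.80).

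Genes on a list of imprint regulators passed more often as higher than as lower. Of 20 tested members of this list 9 rose, which is 45% against 14.3% of all genes, and 1 fell. The other 10 did not pass, and the median change of the 20 was 0.12, beside 0.01 for all genes. Dnmt3b, a de novo DNA methyltransferase gene, rose by 3.89 ± 0.13 and is also on the epiblast marker list, and Dnmt3l, its catalytically inactive partner, lay at 7.14, 6.94 and 7.04 in controls and at 8.28, 8.24 and 7.64 with RA. Dnmt3l rose by 1.01 ± 0.19 (limma adjusted p = 0.00210). Hells, a chromatin remodeller needed for DNA methylation, rose by 1.27 ± 0.10 (limma adjusted p = 3.32e-06) and Uhrf1, which brings the maintenance methyltransferase to replicated DNA, by 0.49 ± 0.09 (limma adjusted p = 0.00197). The brightest probe set of Dnmt3a fell by 1.21 ± 0.12. Kdm1b, a histone demethylase gene, rose by 0.54 ± 0.17 (limma adjusted p = 0.0316), a call that held on leaving out control array 1 and was lost on leaving out any other single array (0.48 to 0.58), and also without scaling (0.73). Zfp57, the zinc finger protein gene known for protecting imprints, had a probe set below the limit and was not tested.

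Promoter windows of 300 bases around gene starts were taken from RefSeq (GRCm38.p6) for 37 of the 45 members, in 56 windows. Both strands were searched for TGCCGC, the hexamer that ZFP57 binds when methylated, and for GGGGCCCC, a GC-rich element described for PLAGL1. The hexamer was found in 13 of the 56 windows (23.2%) and in 11.6% of all 32851 windows, and the element in 4 of 56 (7.14%) and in 1.08% of all windows. Both member counts include overlapping windows with the same matches, those of Mest for the hexamer and those of Peg3 and Usp29 for the element. The windows of members held a median of 14.5 CpG dinucleotides, against 7 over all windows, and both motifs are rich in G and C. A match describes letters and not a bound site. The windows printed belong to members with a change of at least 2-fold and a match, and to Snrpn, whose probe sets shared with Snurf rose. Matches on either strand are in capitals, GCGGCA being the hexamer read on the other strand, and no matches overlap.
Plagl1 (fell), chr10:13090582-13090881, plus strand: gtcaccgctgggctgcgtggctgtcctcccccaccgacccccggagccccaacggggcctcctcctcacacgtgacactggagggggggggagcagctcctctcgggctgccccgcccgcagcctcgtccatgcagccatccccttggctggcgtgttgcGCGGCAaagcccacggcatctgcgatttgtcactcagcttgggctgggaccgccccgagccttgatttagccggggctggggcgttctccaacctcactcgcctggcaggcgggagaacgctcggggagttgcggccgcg
Mest (fell), chr6:30737800-30738099, plus strand: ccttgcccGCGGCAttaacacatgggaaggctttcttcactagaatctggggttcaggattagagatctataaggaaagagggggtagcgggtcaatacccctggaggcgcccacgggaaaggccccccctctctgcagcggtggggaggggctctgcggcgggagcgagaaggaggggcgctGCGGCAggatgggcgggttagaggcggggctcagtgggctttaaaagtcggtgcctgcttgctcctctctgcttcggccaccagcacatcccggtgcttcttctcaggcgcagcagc
Nnat (fell), chr2:157559828-157560127, plus strand: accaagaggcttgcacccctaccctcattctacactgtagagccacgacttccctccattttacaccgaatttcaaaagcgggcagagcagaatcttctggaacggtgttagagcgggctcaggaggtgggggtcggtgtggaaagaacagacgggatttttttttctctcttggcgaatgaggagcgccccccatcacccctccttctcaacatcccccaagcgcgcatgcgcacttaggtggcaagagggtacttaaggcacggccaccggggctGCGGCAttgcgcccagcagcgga
Igf2 (fell), chr7:142661222-142661521, minus strand: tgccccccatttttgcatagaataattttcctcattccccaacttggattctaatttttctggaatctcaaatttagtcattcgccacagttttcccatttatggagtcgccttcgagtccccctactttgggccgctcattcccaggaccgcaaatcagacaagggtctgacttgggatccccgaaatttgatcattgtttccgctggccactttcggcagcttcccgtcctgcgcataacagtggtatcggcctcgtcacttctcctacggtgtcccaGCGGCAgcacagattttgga
Peg3 (fell), chr7:6730370-6730669, minus strand: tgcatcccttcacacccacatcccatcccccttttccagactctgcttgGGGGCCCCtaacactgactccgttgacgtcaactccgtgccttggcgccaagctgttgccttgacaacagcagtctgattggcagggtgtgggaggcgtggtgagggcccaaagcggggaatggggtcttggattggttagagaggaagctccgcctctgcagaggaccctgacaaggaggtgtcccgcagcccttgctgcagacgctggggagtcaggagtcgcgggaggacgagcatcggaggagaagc
Snrpn, chr7:60005150-60005449, minus strand: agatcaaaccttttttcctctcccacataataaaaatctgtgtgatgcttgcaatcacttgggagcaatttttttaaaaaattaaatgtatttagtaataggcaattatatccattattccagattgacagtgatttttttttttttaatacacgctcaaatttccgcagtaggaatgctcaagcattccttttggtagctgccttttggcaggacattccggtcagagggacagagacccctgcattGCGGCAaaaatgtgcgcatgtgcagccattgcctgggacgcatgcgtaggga
Calcr (rose), chr6:3763574-3763873, minus strand: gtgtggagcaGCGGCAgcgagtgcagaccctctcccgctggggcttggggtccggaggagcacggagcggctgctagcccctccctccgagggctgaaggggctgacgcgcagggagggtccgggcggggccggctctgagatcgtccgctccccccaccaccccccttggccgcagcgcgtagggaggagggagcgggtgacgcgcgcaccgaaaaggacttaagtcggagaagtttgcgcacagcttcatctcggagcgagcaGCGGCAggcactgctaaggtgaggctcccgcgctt

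The hexamer occurs at 2 places in the windows of Mest and Calcr and at 1 in those of Plagl1, Nnat, Igf2 and Snrpn. The element GGGGCCCC lies in the Peg3 window, which overlaps the window of Usp29 on the opposite strand, and both genes fell. Other windows with the hexamer are those of Meg3, Mcts2 and Zdbf2, which fell, of Grb10, which rose, and of Zim1 and Nap1l5, which did not pass or were not tested. The element also lies in a window of Ppp1r9a, which fell, and of Rasgrf1, which did not pass. Windows with the hexamer thus belong to members of each direction. No window of the 4 members that rose holds the element, but only 4 windows of members hold it, too few to read a direction from. Those of Dlk1 and Phlda2, with a fall and a rise, hold neither motif.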

How the data were processed

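Expression was measured on 6 one-colour Affymetrix mouse arrays, 3 control and 3 RA samples. The authors deposited 1 linear signal intensity per probe set and array, made with GCOS per the submitters' processing notes; the sources used here do not give its version or scaling. Arrays give no counts, so their number limits the precision.

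The deposited intensities, after control probe sets were left out, were set to log2(intensity + 16) and quantile normalized. Probe sets with a mean above the 40th percentile (5.74) were kept, and each gene was read from the brightest such set that carries 1 symbol alone. In the platform annotation 34945 probe sets had 1 symbol, 932 several and 9160 none. RA was set against control by lmFit and trended eBayes of limma 3.58.1 (R 4.3.3, two-sided), with Benjamini-Hochberg adjustment over 13608 genes and a threshold of 0.05. The fit was also run on simulated normalized values. That run held no scaling differences between arrays, so it does not bear on the effect of scaling. Standard errors of other probe sets come from fits over the 23027 kept single-symbol or all 27022 kept probe sets, the latter chosen after seeing the data.

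The members and all lists were chosen with earlier results of these data known. All members were named; array values were given for those that passed with at least 2-fold and for at least 1 member of each domain with several, and changes for up to 6 called genes of each other list and for each called neighbour. Labels share replicate numbers, but deviations of same-numbered samples correlated at -0.085, -0.014 and -0.027, so they were not treated as pairs. Alternatives covered scaling, pseudocount, filter, probe set choice, variance trend, replicate block and left-out arrays.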

Additional observations from a re-analysis of the deposited data

How the results depend on the processing

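Of the 26 members that passed, 13 kept call and direction in every one of 18 alternatives they entered, and 13 lost the call in at least 1. Scaling mattered most: without it 2401 genes were called in place of 4076, 72.9% of them higher in place of 47.8%, and 10 members fell (9 paternally and 1 maternally expressed) in place of 22. Signs turned without scaling for Nap1l4 (0.23), Airn (0.07), Ube3a (0.02), Mkrn3 (0.0093), Cttn (0.19) and Sem1 (0.15), and with the mean of a gene's probe sets for Ube3a (0.12) and Qk (-0.02). They also turned for Kcnq1ot1 without control array 3 (-0.03) and without RA array 1 and control array 3 (-0.05), for Slc22a18 without control array 3 (-0.004) or RA array 2 (-0.0059), and for Airn without control array 1 (0.11) or RA array 2 (0.08); the cause was not tested. Over the fits that leave out 1 array, Kcnq1ot1 ranged from -0.03 to 0.36, Slc22a18 from -0.0059 to 0.32 and Airn from -0.27 to 0.11. Leaving out single arrays gave 20 to 21 members lower, 4 to 6 higher and 3253 to 3644 called genes. With the replicate number as a block 3724 genes passed, 22 members fell and 5 rose, the added member being Rasgrf1 (1.11, limma adjusted p = 0.0440), and it ended no member's call. Of other named genes the block ended the calls of Qpct, Trappc9, Kdm1b, Zfp954, Gm20559 and Nipa2 (limma adjusted p = 0.0528 to 0.0832). Adjusting over all kept probe sets, an alternative chosen after seeing the data, ended the calls of Impact, Zdbf2, Cttn, Zfp954, Gm20559 and Nipa2 (limma adjusted p = 0.0509 for Impact, 0.0555 for Zdbf2, and at most 0.0644). Members near the lower limit, such as Usp29 with RA and Calcr in controls, are the least certain in size.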
